A study of Mus musculus with 24 samples.

Results

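Tcstv1, Tcstv3 and Tdpoz1 to Tdpoz5 belong to a pair of mouse gene families whose transcripts mark the 2-cell embryo, and their counts were followed in RNA-sequencing of mouse embryonic stem cells. The members were taken by gene identifier and make up 7 of the 55487 genes in the count tables. The cells were of KH2, an embryonic stem cell line built for transgenes that doxycycline (DOX) switches on, and every sample, the controls included, carried the TRE_DUX transgene. The 24 libraries form 12 groups of 2 in 6 lines. DUXBL-KO and its WT form a plain set of 8 libraries. TRIM33-KO, TRIM24-KO and WT pLV2 lines 1 and 2 (line 1 and line 2 from here on) form a pLV2 set of 16 libraries. Each line was sampled without DOX and after 16 h of DOX. Each knockout appears in the titles as line 1 alone, neither the term pLV2 nor whether a line is 1 clone is explained in the labels, and nothing says that the 2 libraries of a group came from separate cultures. The p-values therefore measure only the spread between these libraries, which may be technical. The state with or without DOX was read from the titles, since the treatment tag differs from the title in 8 libraries of the pLV2 set.

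DUX is a homeodomain transcription factor that switches on genes of the 2-cell embryo, and its forced expression moves part of an embryonic stem cell culture into a 2-cell-like state. Tcstv genes, named for the 2-cell stage variable group, code for short proteins found in early embryos and in 2-cell-like cells. Tdpoz genes code for proteins with a TRAF-like (MATH) domain and a POZ (BTB) domain, the domain order of SPOP, an adaptor that brings substrates to cullin ubiquitin ligases. Both families are recently expanded in rodents and lie as clusters of similar copies, so how far reads can tell the copies apart bears on every count.

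The Tcstv genes lie on chromosome 13 of GRCm38, the build on which the gene models were placed. Tcstv1 (ENSMUSG00000096284.2) runs from 119893388 to 119894785 on the minus strand and Tcstv3 (ENSMUSG00000095821.2) from 120316878 to 120318178 on the plus strand. Each has a transcript of 2 exons, with 513 coding bases in Tcstv1 and 507 in Tcstv3, and 94.7% of the aligned coding bases are identical. The Tdpoz genes lie on chromosome 3. Tdpoz1 (ENSMUSG00000094084.2) spans 93669333 to 93676310 on the minus strand, with 2 exons. The remaining Tdpoz gene models are single exons: Tdpoz2 (ENSMUSG00000103362.1) at 93651542 to 93652686 on the minus strand, Tdpoz4 (ENSMUSG00000060256.1) at 93796398 to 93797510 and Tdpoz3 (ENSMUSG00000058005.3) at 93826020 to 93827117 on the plus strand, and Tdpoz5 (ENSMUSG00000094163.1) at 93960292 to 93961314 on the minus strand. Coding identity between Tdpoz members ran from 78.8% (Tdpoz1 and Tdpoz4) to 88.4% (Tdpoz1 and Tdpoz3).

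Reads were 75 bases long, so the first 75 coding bases show what a read has to tell the copies apart. Those of Tcstv1 and Tcstv3 are the same letters, and capitals in the Tdpoz lines mark bases that differ from Tdpoz3, counted position by position with no gap. Gm10697 is an annotated gene at 94071622 to 94072644 of the same chromosome.
Tcstv1 and Tcstv3: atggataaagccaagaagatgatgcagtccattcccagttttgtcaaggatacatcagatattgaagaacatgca
Tdpoz3: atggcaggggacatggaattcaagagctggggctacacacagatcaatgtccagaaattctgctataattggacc
Tdpoz1: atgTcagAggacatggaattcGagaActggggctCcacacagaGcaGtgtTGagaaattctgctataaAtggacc
Tdpoz2: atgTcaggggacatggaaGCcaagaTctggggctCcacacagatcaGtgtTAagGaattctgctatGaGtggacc
Tdpoz4: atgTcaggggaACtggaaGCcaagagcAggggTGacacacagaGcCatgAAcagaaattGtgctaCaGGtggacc
Tdpoz5: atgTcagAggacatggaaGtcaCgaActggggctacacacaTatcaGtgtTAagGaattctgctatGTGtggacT
Gm10697: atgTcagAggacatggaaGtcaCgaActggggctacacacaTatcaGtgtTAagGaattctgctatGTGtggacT

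Tdpoz4 differs from Tdpoz3 at 16 of these bases, Tdpoz5 at 14, Tdpoz2 at 11 and Tdpoz1 at 10. Tdpoz5 and Gm10697 are the same letters here and over all 1020 coding bases. Over the full transcripts, the share of 75-base windows found in no other annotated gene was 93.1% for Tcstv1, 85.7% for Tcstv3, 80.1% for Tdpoz4, 68.1% for Tdpoz1 and 66.9% for Tdpoz2. Tdpoz1 shares 31.9% of its windows with Gm9117 and Tdpoz2 25.7% with Gm5773. The share was 45.5% for Tdpoz3, which shares the other 54.5% with the pseudogene Gm4982. For Tdpoz5 it was 0%, since each window also lies in Gm10697. Tdpoz4 shares 16.1% of its windows with Gm4858. How reads that match several copies were counted is not given in the sources used here, so values of Tdpoz5 alone are uncertain. Those of Tdpoz3 are partly so, and those of the other members less so, to the extent of their shared windows.

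A promoter window was at hand for Tdpoz1, Tdpoz4 and Tdpoz5. Models of Tdpoz4 and Tdpoz5 begin at the start codon and need not mark where transcription begins. Only the 250 bases before the RefSeq start of Tdpoz1 (GRCm38.p6, chr3:93676284-93676533, minus strand) are therefore shown, for 1 gene that is at the floor without DOX and high with it. The gene model of Tdpoz1 given above begins at 93676310 on this strand, so the last bases shown lie inside that model. Capitals mark a match to TATANA, whose first base lies 60 bases before the RefSeq start.
Tdpoz1: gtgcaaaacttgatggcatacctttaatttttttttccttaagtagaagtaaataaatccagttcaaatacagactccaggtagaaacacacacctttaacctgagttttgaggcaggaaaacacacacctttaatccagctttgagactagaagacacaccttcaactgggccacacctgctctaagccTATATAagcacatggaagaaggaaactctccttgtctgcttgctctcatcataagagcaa
The letters searched, on both strands, were chosen after the windows had been read, and no match overlapped another. TATANA occurs in 24.7% of the 32851 RefSeq windows of 250 bases before and 50 after a start, and among the members in that of Tdpoz1 alone. GATTCAAT occurs in 0.496% of windows and among the members in that of Tdpoz5 alone. A longer string was also searched and occurs in 11 of the 32851 windows and in none of the 3 member windows. A match describes letters and not a bound site.

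Depth and labels were checked before the members were compared. Gene counts ran from 11784696 to 19136869 per library. CT010467.1 alone held 30.4% of the gene counts of TRIM24-KO with DOX replicate 2 and 12.9% of those of TRIM33-KO with DOX replicate 2. Library sizes were scaled by TMM factors for this reason, and leaving that gene out changed no count of members called. Of the targeted genes, Trim33 was lower in TRIM33-KO with DOX than in WT pLV2 with DOX, with a log2 difference of -2.59 ± 0.07 (SE). Trim24 was not lower past the threshold in the libraries labelled TRIM24-KO (-0.14 ± 0.08, adjusted p = 0.187, edgeR), nor Duxbl1 in those labelled DUXBL-KO (0.47 ± 0.69, adjusted p = 0.854, edgeR), so these transcripts do not check those labels. With DOX, Trim24 had 122 ± 2.16 CPM in TRIM24-KO, above line 1 (97.4 ± 3.25) and below line 2 (187 ± 17.6; SD, n = 2). Pou5f1, a pluripotency factor, had 500.1 CPM (counts per 1000000 of the scaled library size) or more in every library. The growth protocol allows feeder fibroblasts. The summed level of 19 fibroblast markers was 836 to 2230 CPM without DOX and 844 to 2005 CPM with DOX, with 4 to 8 of them at 0 in each library. Fn1 (604 to 1803 CPM), Sparc (137 to 273) and Vim (25.4 to 205) made up most of that sum, and each of the other 16 stayed at or below 20.8 CPM. The collagen gene Col1a1 stayed at or below 7.48 CPM and the matrix gene Dcn at or below 0.18 CPM.

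Without DOX both families were at the floor in every line, and with DOX both were plainly detected in every line. The 7 members together had 1 to 11 counts per library in the 12 libraries without DOX and 1608 to 9020 counts in the 12 with DOX. The highest single count without DOX was 6, and 41 of the 84 member values there were 0. With DOX 2 of the 84 values were 0, both of them Tdpoz5. The other 6 members had higher counts in every library with DOX than in any without, as did 1.58% of all 55487 genes, or 3.42% of the 25557 with over 3 counts in at least 1 library. In bulk samples, more cells in the 2-cell-like state and more RNA per such cell cannot be told apart.

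**Figure D1:**
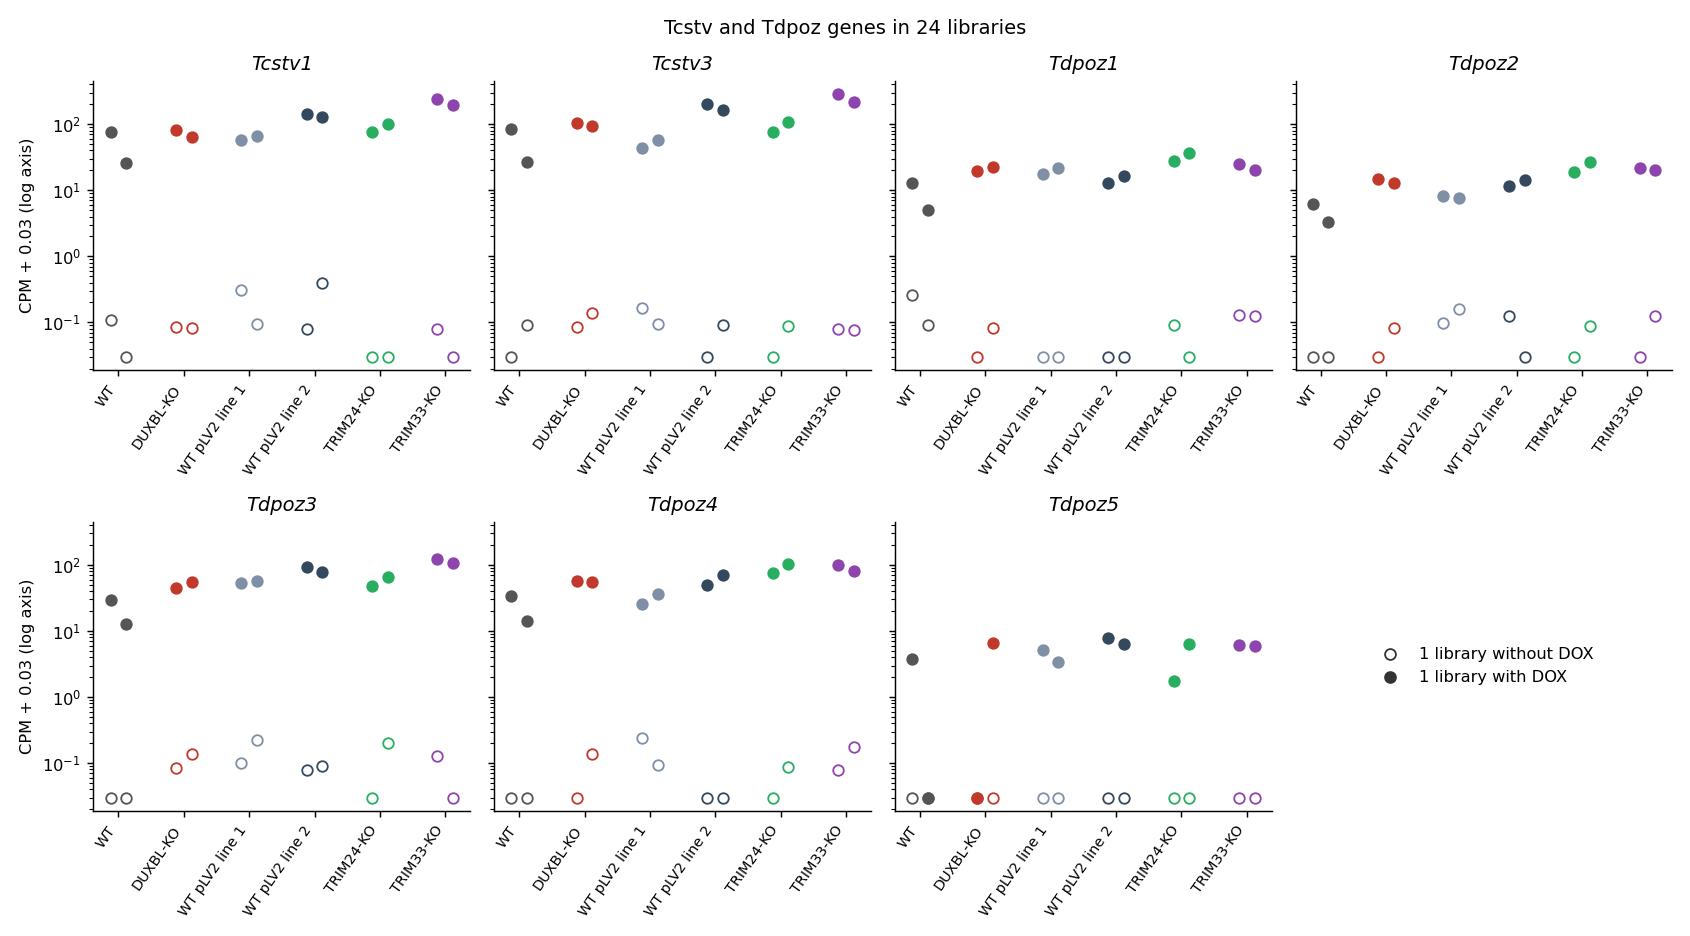
Level of each member in each of the 24 libraries, as CPM + 0.03 on a log axis, by line. Open points are libraries without DOX and filled points libraries with DOX. For each member but Tdpoz5 the filled points lie above every open point.

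Tcstv3 had 0 to 2 counts per library without DOX. With DOX the 2 libraries of TRIM33-KO gave 285 and 217 CPM, line 2 gave 199 and 163, DUXBL-KO gave 103 and 92.3, TRIM24-KO gave 75.4 and 109, WT gave 83.4 and 27.02, and line 1 gave 44.1 and 57.7. The 2 states did not overlap in any line, and TRIM33-KO and line 2 held the highest levels. Pooled over the 2 libraries of each state, Tcstv3 in TRIM33-KO went from 2 to 5202 counts, a ratio of 5202 (exact 95% counting interval 1439 to 42963). In line 1 it went from 3 to 1342 counts, a ratio of 511 (175 to 2482). Such intervals cover counting error only and are wide because the lower state holds so few counts.

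Tcstv1, its close copy, had 0 to 6 counts without DOX. With DOX TRIM33-KO gave 243 and 195 CPM, line 2 gave 142 and 126, TRIM24-KO gave 75.2 and 99.8, DUXBL-KO gave 81.8 and 64.6, line 1 gave 56.9 and 66.2, and WT gave 75.95 and 25.5. TRIM33-KO and line 2 were again highest, and those of the other lines overlapped in part, with the WT libraries farther apart than those of any other line. TRIM24-KO had no Tcstv1 count without DOX, and its 1693 counts with DOX were at least 959-fold higher, taken against 3 counts over the group.

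Tdpoz3 and Tdpoz4 took between 71.0% and 81.7% of all Tdpoz counts in the libraries with DOX. Tdpoz3 had 0 to 3 counts without DOX. With DOX TRIM33-KO gave 122 and 106 CPM, line 2 gave 94.3 and 78.1, TRIM24-KO gave 47.8 and 66.6, line 1 gave 53.1 and 57.1, DUXBL-KO gave 45.3 and 55.4, and WT gave 29.5 and 12.9. TRIM33-KO again held the highest levels, and TRIM24-KO lay among the other lines. In WT, where no count was seen without DOX, the treated libraries held at least 204-fold more Tdpoz3, and in line 2 the ratio was 1591 (440 to 13144).

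Tdpoz4 also had 0 to 3 counts without DOX. With DOX TRIM33-KO gave 99.5 and 81.6 CPM, TRIM24-KO gave 76.5 and 104, line 2 gave 50.4 and 70.9, DUXBL-KO gave 56.6 and 55.1, line 1 gave 25.6 and 36.7, and WT gave 33.8 and 14.3. For this gene the libraries of TRIM24-KO and TRIM33-KO overlapped, and both lay above those of the pLV2 WT lines. DOX left Tdpoz4 at least 231-fold higher in WT and at least 749-fold higher in line 2, both without a count in the untreated libraries.

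Tdpoz1 and Tdpoz2 were the lower members with a count in every library with DOX. For Tdpoz1, against 0 to 3 counts without DOX, TRIM24-KO gave 28.0 and 36.7 CPM, TRIM33-KO gave 24.7 and 20.2, DUXBL-KO gave 19.5 and 22.8, line 1 gave 17.6 and 21.6, line 2 gave 12.9 and 16.3, and WT gave 12.7 and 4.98. TRIM24-KO was highest for Tdpoz1, and line 2 was no higher than line 1. For Tdpoz2, against 0 to 2 counts without DOX, TRIM24-KO gave 19.05 and 26.8 CPM, TRIM33-KO gave 21.4 and 20.3, DUXBL-KO gave 14.9 and 12.8, line 2 gave 11.7 and 14.1, line 1 gave 8.14 and 7.57, and WT gave 6.06 and 3.23. The libraries labelled TRIM24-KO and TRIM33-KO lay above both WT pLV2 lines for Tdpoz2. Among the 4 lines with a Tdpoz1 count without DOX, pooled ratios ran from 63.4 (24.5 to 234) in WT, which had 4 such counts, to 1065 (190 to 42139) in TRIM24-KO. Lines 1 and 2 had none, and their Tdpoz1 was at least 197-fold and at least 180-fold higher with DOX.

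Tdpoz5 had no count in any library without DOX and uneven counts with DOX. In order of replicate, WT gave 62 and 0 counts, DUXBL-KO gave 0 and 121, line 1 gave 67 and 45, line 2 gave 103 and 85, TRIM24-KO gave 21 and 49, and TRIM33-KO gave 69 and 55. Its identical copy Gm10697 had 62 and 60 counts for WT, 192 and 121 for DUXBL-KO, 0 and 46 for line 1, 102 and 169 for line 2, 148 and 98 for TRIM24-KO, and 276 and 164 for TRIM33-KO. Every library with 0 counts for one of the copies thus had counts for the other. Summed, the copies had 60 to 345 counts in each library with DOX and none without, so that DOX left the sum at least 51.5-fold higher in WT and at least 376-fold higher in TRIM33-KO.

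**Figure D2:**
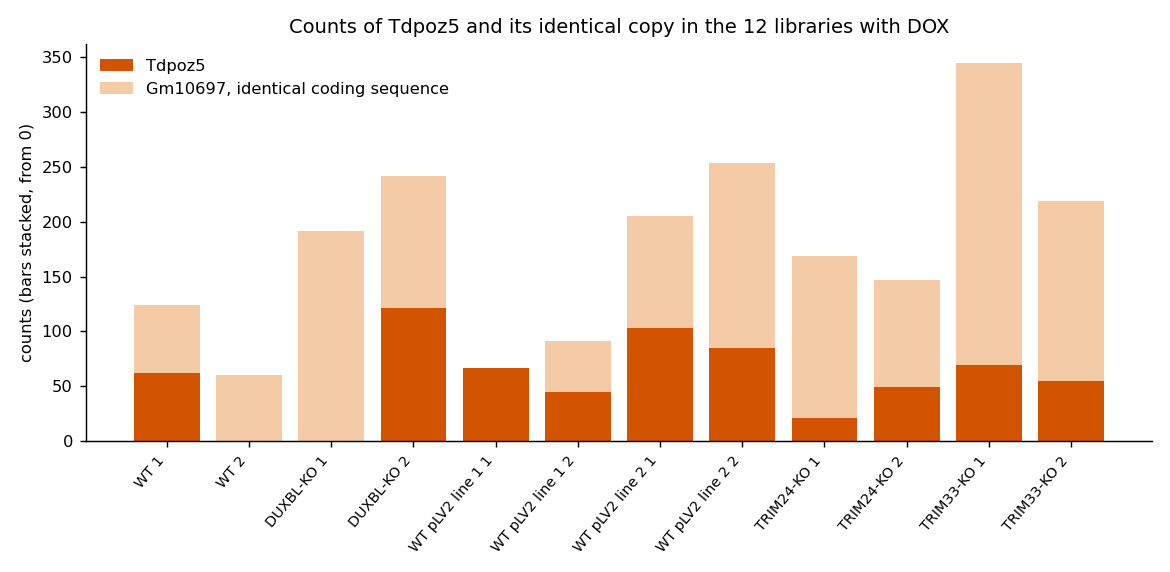
Counts of Tdpoz5 and of Gm10697, stacked from 0, in each of the 12 libraries with DOX, numbered by replicate. Tdpoz5 alone is at 0 in WT replicate 2 and DUXBL-KO replicate 1, while the sum lies between 60 and 345 counts in every library.

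Levels of different genes were compared per kilobase of all annotated exons, merged. This length was 1398 bases for Tcstv1, whose 2-exon transcript has 875, and 779 for Tcstv3. On these lengths Tcstv3 had the highest group mean in all lines, at 322 ± 61.7 CPM per kb in TRIM33-KO and 65.3 ± 12.3 in line 1 (SD, n = 2). Tcstv1 had 157 ± 24.2 and 44.01 ± 4.73 there. Before division by length Tcstv1 was above Tcstv3 in line 1 (61.5 and 50.9 CPM), so their order there depends on the length used. Windows shared with other genes were not allowed for. The order of the next members depended on the line: in line 1 Tdpoz3 (50.2 ± 2.53) was above Tdpoz4 (28.0 ± 7.07) and beside Tcstv1, whereas in TRIM24-KO Tdpoz4 (81.0 ± 17.3) was above Tdpoz3 (52.1 ± 12.1). Tdpoz1 and Tdpoz2 lay at 8.33 ± 1.22 and 6.86 ± 0.36 in line 1 and at 13.8 ± 2.63 and 20.03 ± 4.80 in TRIM24-KO, the reverse order. In DUXBL-KO the libraries of Tcstv1 (46.2 and 58.5) overlapped those of Tdpoz3 and Tdpoz4, and in WT those of Tdpoz1 and Tdpoz2 overlapped. For scale, Zscan4c, a widely used 2-cell marker, had 166 ± 21.7 in line 1 and 737 ± 42.2 in TRIM33-KO. Spop and Spopl, genes with the same domain order as Tdpoz that lie outside the cluster, were read in both states, Spop at 37.6 to 61.8 CPM without DOX and 26.7 to 62.3 with DOX, and Spopl at 13.4 to 26.7 and 12.5 to 24.2 CPM. In edgeR's test of DOX within a line, Spop was called lower in the 4 pLV2 lines, by log2 differences of -0.45 in line 1, -0.56 in line 2, -0.38 in TRIM24-KO and -0.67 in TRIM33-KO, and was not called in WT (-0.10) or DUXBL-KO (-0.08).

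The first comparison was DOX against no DOX within each line. With edgeR's quasi-likelihood test and Benjamini-Hochberg adjustment over all genes, 6 of 7 members were called higher in each line of the plain set, and 7 of 7 in each of the 4 pLV2 lines. All 7 passed the filter on low counts only through groups with DOX, so these counts cannot speak for the choice of members. Among all genes tested in WT, 2.82% were called higher with DOX and 2.93% in either direction. These shares were 4.50% and 4.91% for DUXBL-KO, 10% and 16.3% for line 1, 12.7% and 26.8% for line 2, 11.5% and 16.4% for TRIM24-KO, and 16.5% and 36.6% for TRIM33-KO. The highest adjusted p among members called was 0.00773 in WT, 0.00192 in DUXBL-KO and 1.51e-04 over the pLV2 lines. The member not called in WT and DUXBL-KO was Tdpoz5, and 7 of 7 were called in both lines when Tdpoz5 and Gm10697 were summed. In WT the calls rest on the other libraries of the set: 0 members were called when the fit held WT libraries alone, 0 without the untreated WT replicate 2 and 4 without the untreated WT replicate 1. Over all genes, 529 were called in the fit of the set, 1 with WT libraries alone, 2 without the untreated replicate 2 and 95 without the untreated replicate 1. With the replicate number as a block, 6 of 7 members were called in each line of the plain set, against 961 of all genes in WT and 1594 in DUXBL-KO in place of 529 and 886. Of the 32 other 2-cell genes listed, such as Zscan4 and Usp17l genes, 31 were called higher in each line of the plain set. In each line of the pLV2 set 32 were called higher. This list was drawn up with earlier results of these data known, so its calls cannot serve as an independent comparison.

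By its title, the series asks about DUXBL, a DUX-related homeodomain protein, and how cells leave the 2-cell-like state. With DOX, all 7 members had higher estimates in the libraries labelled DUXBL-KO than in WT, and 0 were called. The largest difference was that of Tdpoz2, at log2 1.57 ± 0.37 (SE, adjusted p = 0.287, edgeR). Tdpoz1 (1.26 ± 0.43), Tdpoz3 (1.25 ± 0.37) and Tdpoz4 (1.22 ± 0.40) followed, with adjusted p of 0.426, 0.389 and 0.426 in edgeR. Tcstv3 (0.82 ± 0.44, 95% interval -0.04 to 1.68) and Tcstv1 (0.53 ± 0.44, -0.33 to 1.38) were less far apart. At an unadjusted p under 0.05, 4 members passed, which were Tdpoz1 to Tdpoz4, as did 1819 of all genes, or 10.1%. Over all 18060 genes 0.0166% were called higher and 0.0720%, or 13 genes, in either direction.

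For the members other than Tdpoz5, the WT libraries with DOX differed more from each other than those of any other line with DOX. Replicate 1 had 2.97 times the CPM of replicate 2 for Tcstv1, 3.09 for Tcstv3 and 1.88 to 2.54 for Tdpoz1 to Tdpoz4, and Zscan4c moved the same way, by 2.38 times. Without WT with DOX replicate 2 the differences fell to 1.19 for Tdpoz2, 0.77 for Tdpoz3, 0.74 for Tdpoz1, 0.73 for Tdpoz4, 0.23 for Tcstv3 and -0.05 for Tcstv1. Without replicate 1 they rose to 1.51 for Tcstv1, 1.85 for Tcstv3 and between 1.96 and 2.09 for Tdpoz1 to Tdpoz4. No member was called in either case. With the replicate number as a block, 1 member was called, Tdpoz2 at 1.62 (adjusted p = 0.0295, edgeR), against 485 of all genes in place of 13. Dux itself (Duxf3) had the same direction as the members, with 3.88 ± 1.48 CPM in DUXBL-KO and 1.24 ± 0.20 in WT with DOX (SD, n = 2; log2 1.64 ± 0.41, adjusted p = 0.346, edgeR), and its part was not tested. DESeq2 called 1 member higher, a fit of all 24 libraries 4, and a fit with no filter on low counts 5.

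In the pLV2 set the reference was the mean of WT lines 1 and 2, since the labels do not tie a WT line to a knockout. With DOX, the libraries labelled TRIM24-KO had higher Tdpoz1, Tdpoz2 and Tdpoz4 and no called change of Tcstv1, Tcstv3, Tdpoz3 or Tdpoz5. Tdpoz2 differed by log2 1.17 ± 0.17 (adjusted p = 2.97e-05, edgeR), Tdpoz4 by 1.04 ± 0.16 (adjusted p = 6.05e-05, edgeR) and Tdpoz1 by 0.92 ± 0.15 (adjusted p = 1.39e-04, edgeR). Tcstv1 and Tcstv3 both differed by -0.07, with 95% intervals of -0.31 to 0.18 and -0.35 to 0.20. Tdpoz3 differed by -0.28 ± 0.13 (-0.54 to -0.03, adjusted p = 0.0977, edgeR). The share of all genes called higher was 22.7%, and 40.8% were called in either direction, so 3 of 7 stands against a broad background of differences between these lines. Among the 32 other 2-cell genes 2 were called higher and 22 lower, with Zscan4c at -0.64 (adjusted p = 0.0048, edgeR) and Zfp352 at 0.71 (adjusted p = 5.3e-04, edgeR).

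The rise of Tdpoz1, Tdpoz2 and Tdpoz4 held against each WT line. Against line 1 alone they were at 0.71, 1.53 and 1.53, and against line 2 alone at 1.13, 0.81 and 0.56, all called. Of all genes, 32.2% were called against line 1 alone (17.9% higher) and 46.8% against line 2 alone (24.7% higher), so calls were common in both fits. The signs of Tcstv1, Tcstv3 and Tdpoz3 followed the line chosen. Tcstv1 and Tcstv3 were at 0.50 and 0.84 against line 1 and at -0.63 and -0.99 against line 2, and all 4 of these differences were called. Tdpoz3 was at 0.04 against line 1 and was called lower against line 2, at -0.60. Tdpoz5 alone was at -0.56 against the mean of both lines, -0.19 against line 1 and -0.93 against line 2, none of them called, whereas its sum with Gm10697 was at 0.66 against the mean (adjusted p = 0.00968, edgeR). Without TRIM24-KO with DOX replicate 2, the library with much CT010467.1, Tdpoz3 was at -0.51 and Tdpoz5 at -1.64 against the mean. Duxf3 was lower in TRIM24-KO than in WT pLV2, at -0.88 (adjusted p = 0.00797, edgeR). The fibroblast markers summed to 844 and 907 CPM in TRIM24-KO with DOX and to 1650 to 1908 CPM in the WT lines, and the part of Duxf3 and of these markers in the differences was not tested.

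In TRIM33-KO with DOX, 5 of 7 members were higher than in WT pLV2, against 15.1% of all genes called higher and 26.8% in either direction. Tcstv3 was at log2 1.39 ± 0.13 (adjusted p = 1.56e-06, edgeR) and Tcstv1 at 1.27 ± 0.12 (adjusted p = 2.02e-06, edgeR). Among the Tdpoz genes, Tdpoz4 was at 1.06 ± 0.15, Tdpoz2 at 1.05 ± 0.17 and Tdpoz3 at 0.73 ± 0.12, each called. Tdpoz1 was at 0.41 ± 0.15 (adjusted p = 0.0582, edgeR). It was called with RLE scaling (0.45), with no filter (0.39), with only the compared groups in the fit (0.42) and with the replicate number as a block. Its difference was 0.49 without line 1 with DOX replicate 2 and 0.50 without line 2 with DOX replicate 2. Tdpoz5 was at 0.14 ± 0.35, and at 1.42 when summed with Gm10697 (adjusted p = 5.4e-05, edgeR). Of the 32 other 2-cell genes 31 were called higher. Against WT line 2 alone only Tcstv1 stayed called, at 0.71 (adjusted p = 0.00994, edgeR), and 646 of all genes were called in place of 4845. The other Tdpoz and Tcstv values against line 2 ran from -0.23 (Tdpoz5) to 0.69 (Tdpoz2). Duxf3 was at 0.17 in TRIM33-KO against the mean of both WT lines (adjusted p = 0.593, edgeR), and its part was not tested. The pluripotency markers summed to 5691 and 5662 CPM in TRIM33-KO, 5641 and 5705 in line 2 and 7633 and 7717 in line 1, all with DOX, and their part was not tested.

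**Figure D3:**
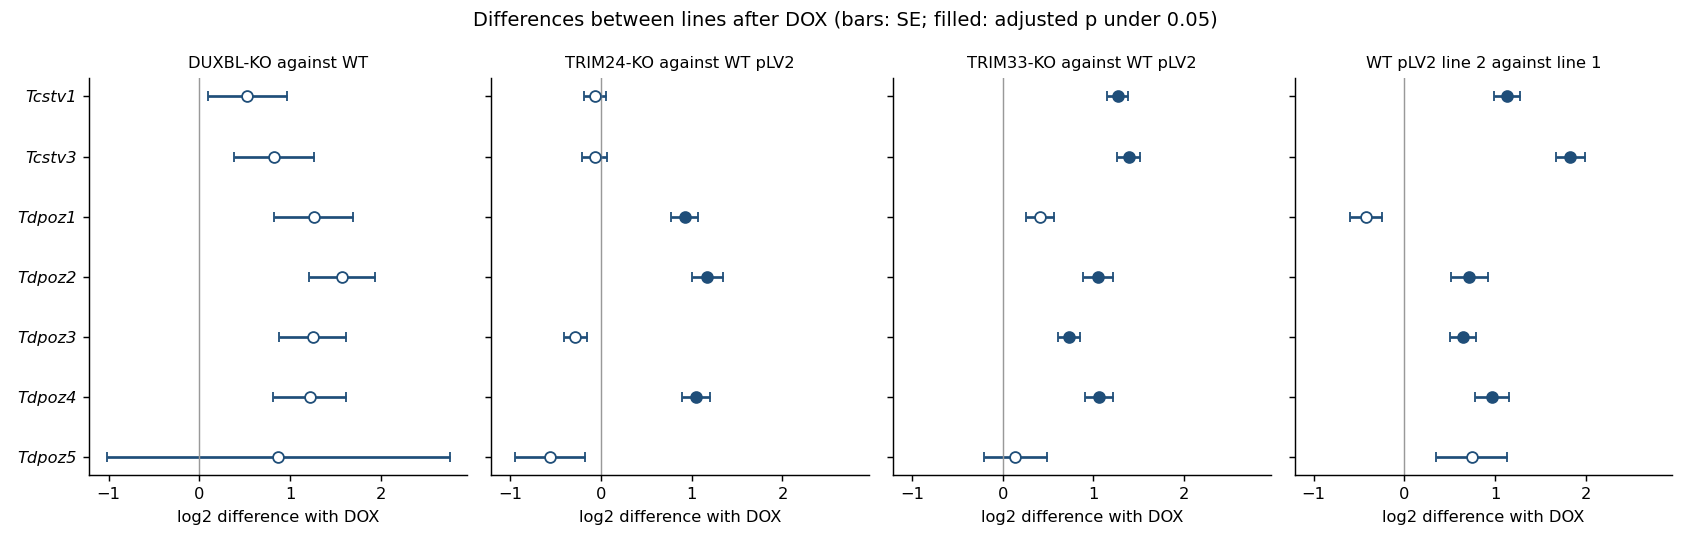
Difference of each member between lines with DOX, as log2 with its SE, for 4 comparisons on the same axis. Filled points have an adjusted p under 0.05. DUXBL-KO has 0 filled points, TRIM24-KO 3, TRIM33-KO 5 and WT pLV2 line 2 against line 1 also 5.

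The WT lines of the pLV2 set also differed from each other. With DOX, line 2 had higher Tcstv3 (log2 1.83 ± 0.16), Tcstv1 (1.13 ± 0.14), Tdpoz4 (0.96 ± 0.19), Tdpoz2 (0.71 ± 0.21) and Tdpoz3 (0.65 ± 0.14) than line 1, with adjusted p between 3.25e-07 and 0.0114 in edgeR. Tdpoz1 went the other way, at -0.42 ± 0.18 (adjusted p = 0.0697, edgeR). All genes were called higher at a rate of 19.5% and in either direction at 40.1%. Of the 32 other 2-cell genes 29 were called higher and 1 lower. In a fit of all 24 libraries 3 members stayed called, without Tdpoz2 and Tdpoz3. With only the compared groups in the fit 6 were called, Tdpoz5 (0.77) among them, and with no filter on low counts 7, of which Tdpoz1 was lower. The shares of all genes given above are those of the main fit and not of these alternatives. Tdpoz2 also lost its call without line 1 with DOX replicate 2 (0.66) or line 2 with DOX replicate 2 (0.57), and in the latter case Tdpoz1 was called lower (-0.60). These comparisons of the pLV2 set all use the WT pLV2 libraries and are not independent of each other. Between these lines Duxf3 moved opposite to the Tcstv genes, with 7.78 ± 0.77 CPM in line 1 and 4.19 ± 0.34 in line 2 (SD, n = 2). Its part in the members' levels was not tested.

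Without DOX, 0 of 7 members were called in any of the 4 comparisons between lines, and 0 in the test of whether the response to DOX differed between lines. Each of these 8 tests uses the untreated groups, with 0 to 6 counts per member and library. At an unadjusted p under 0.05 edgeR passed Tcstv1 in TRIM24-KO and Tdpoz1 in TRIM33-KO without DOX. In the test of a differing response it passed Tcstv1 in TRIM24-KO, and Tcstv1 and Tdpoz1 in TRIM33-KO. The same threshold was passed by 9028 of 18079 genes for TRIM24-KO and 6409 for TRIM33-KO without DOX, and by 1548 and 1780 for a differing response. DESeq2 called 1 member lower in TRIM24-KO without DOX and 0 in the other 7. With no filter on low counts edgeR called 1 member in TRIM24-KO and 1 in TRIM33-KO without DOX, and 1 for the differing response of TRIM33-KO. For that response 350 of 36052 genes were called with no filter, and 104 of 18079 with the filter. The shares that follow are those of the main fit. The share of all genes called without DOX was 0.0388% for DUXBL-KO, 43.4% for TRIM24-KO, 23.9% for TRIM33-KO and 38.3% for line 2 against line 1. With the replicate block 440 genes in place of 7 were called for DUXBL-KO without DOX, with 0 members among them. For a differing response the share was 0% for DUXBL-KO, 0.437% for TRIM24-KO, 0.575% for TRIM33-KO and 0.238% for line 2.

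Ratios between members of a family were described for each library with DOX. The ratio of Tdpoz3 to Tdpoz4 counts was 0.624 and 0.641 in TRIM24-KO with DOX, the lowest of the 12 libraries, and 2.08 and 1.55 in line 1. It was 1.87 and 1.10 in line 2, 1.23 and 1.30 in TRIM33-KO, 0.874 and 0.897 in WT and 0.801 and 1.01 in DUXBL-KO. TRIM24-KO did not overlap any other line. Between TRIM24-KO and both WT pLV2 lines the mean log2 ratio differed by -1.34, and between TRIM33-KO and those lines by -0.34. This ratio was chosen after its values were seen, so its differences are a description with no test, and it rests on Tdpoz3, which shares windows with Gm4982. With DOX, Gm4982 had 5.52 ± 1.01 CPM in TRIM24-KO, 5.08 ± 0.24 in line 1, 9.94 ± 2.04 in line 2 and 12.8 ± 0.61 in TRIM33-KO (SD, n = 2). These levels depend on the same unknown handling of shared reads, so they do not show how much of Tdpoz3 belongs to Gm4982.

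Tdpoz1 made up 7.28% to 9.01% of Tdpoz counts in the libraries of line 2 and TRIM33-KO and 14.1% to 17.1% in the other 8, so these lines did not overlap the rest. The ratio of Tcstv1 to Tcstv3 counts was above 1 only in line 1, at 1.29 and 1.15. It was lowest in DUXBL-KO replicate 2, at 0.700, and in line 2 replicate 1, at 0.717. Tcstv counts were 0.869 to 1.93 times the Tdpoz counts of the same library. The 4 libraries under 1 were those of line 1 (0.922 and 0.980) and TRIM24-KO (0.870 and 0.869), and the highest were in line 2 (1.93) and TRIM33-KO (1.92). Both ratios are free of library scaling, since numerator and denominator come from 1 library.

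**Figure D4:**
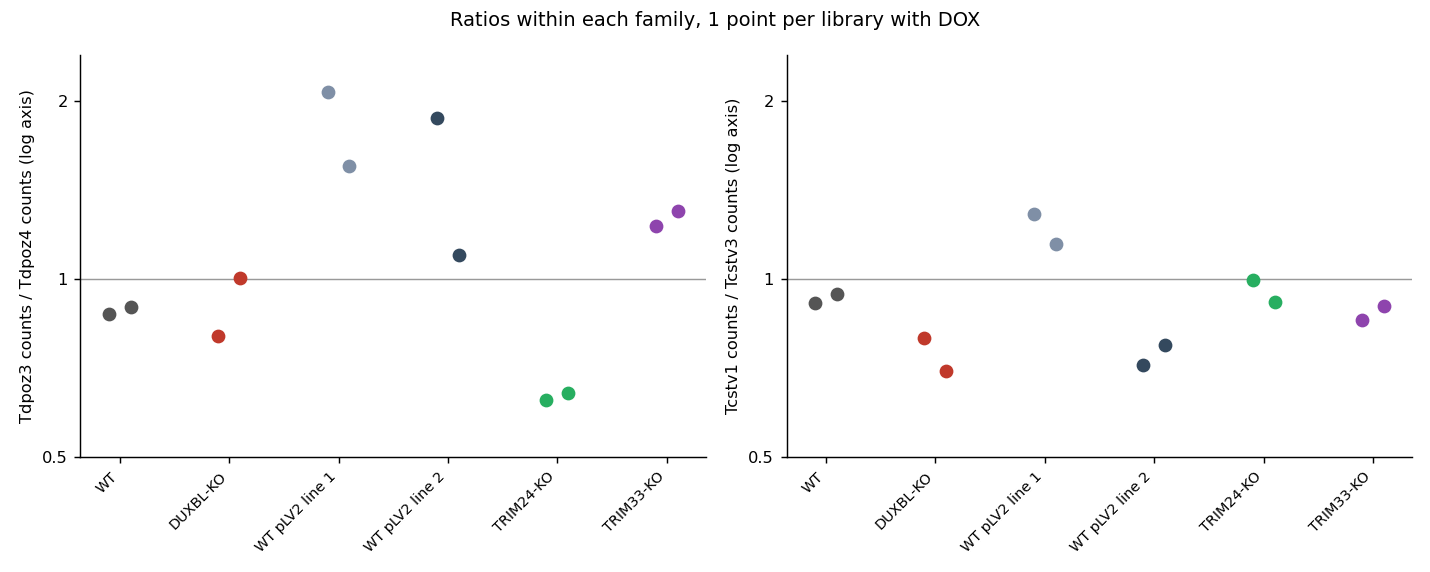
Ratio of Tdpoz3 to Tdpoz4 counts (left) and of Tcstv1 to Tcstv3 counts (right), on log axes, with 1 point per library with DOX. TRIM24-KO lies lowest on the left, at 0.624 and 0.641, and line 1 highest on the right, at 1.29 and 1.15.

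The members are not alone in their clusters. Within 250 kb of the Tcstv genes lie 33 other annotated genes, of which 12 had higher counts in every library with DOX than in any library without and another 12 had at most 3 counts in all 24 libraries. The share with such a separation over all genes was 1.58%. The separation held for 9 of the 21 between Tcstv1 and Tcstv3 and for 3 of the 12 outside them. Gm21761 had 0 to 10 counts without DOX and 1639 to 8971 with DOX, and Gm20767 had 0 to 7 and 1113 to 5962. Outside the members, Hmgcs1, of cholesterol synthesis, with 2653 to 4930 counts without and 1688 to 4322 with DOX, and Zfp131, with 569 to 1135 and 370 to 1317, overlapped between states, although in edgeR's test of DOX within a line Hmgcs1 was called higher in TRIM24-KO and Zfp131 in TRIM24-KO and TRIM33-KO. Nim1k, with 9 to 33 counts without and 2 to 16 with DOX, was called lower in TRIM33-KO in that test.

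Around the Tdpoz genes lie 42 others, 14 of them higher in every library with DOX, which were 5 of the 12 between the members and 9 of the 30 outside them. Another 17 of the 42 had at most 3 counts in all 24 libraries. Over all genes 1.58% were higher in every library with DOX. Gm10696 had 0 to 2 counts without DOX and 225 to 1042 with DOX, and the pseudogene Gm9121 had 0 to 2 and 230 to 1328. The calcium-binding S100a10, with 491 to 1366 and 465 to 1316 counts, and S100a11, with 311 to 1206 and 284 to 1011, overlapped between states and were called in no line. Similar copies within a cluster can exchange reads, so the counts of single neighbours share that limit with Tdpoz5.

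**Figure D5:**
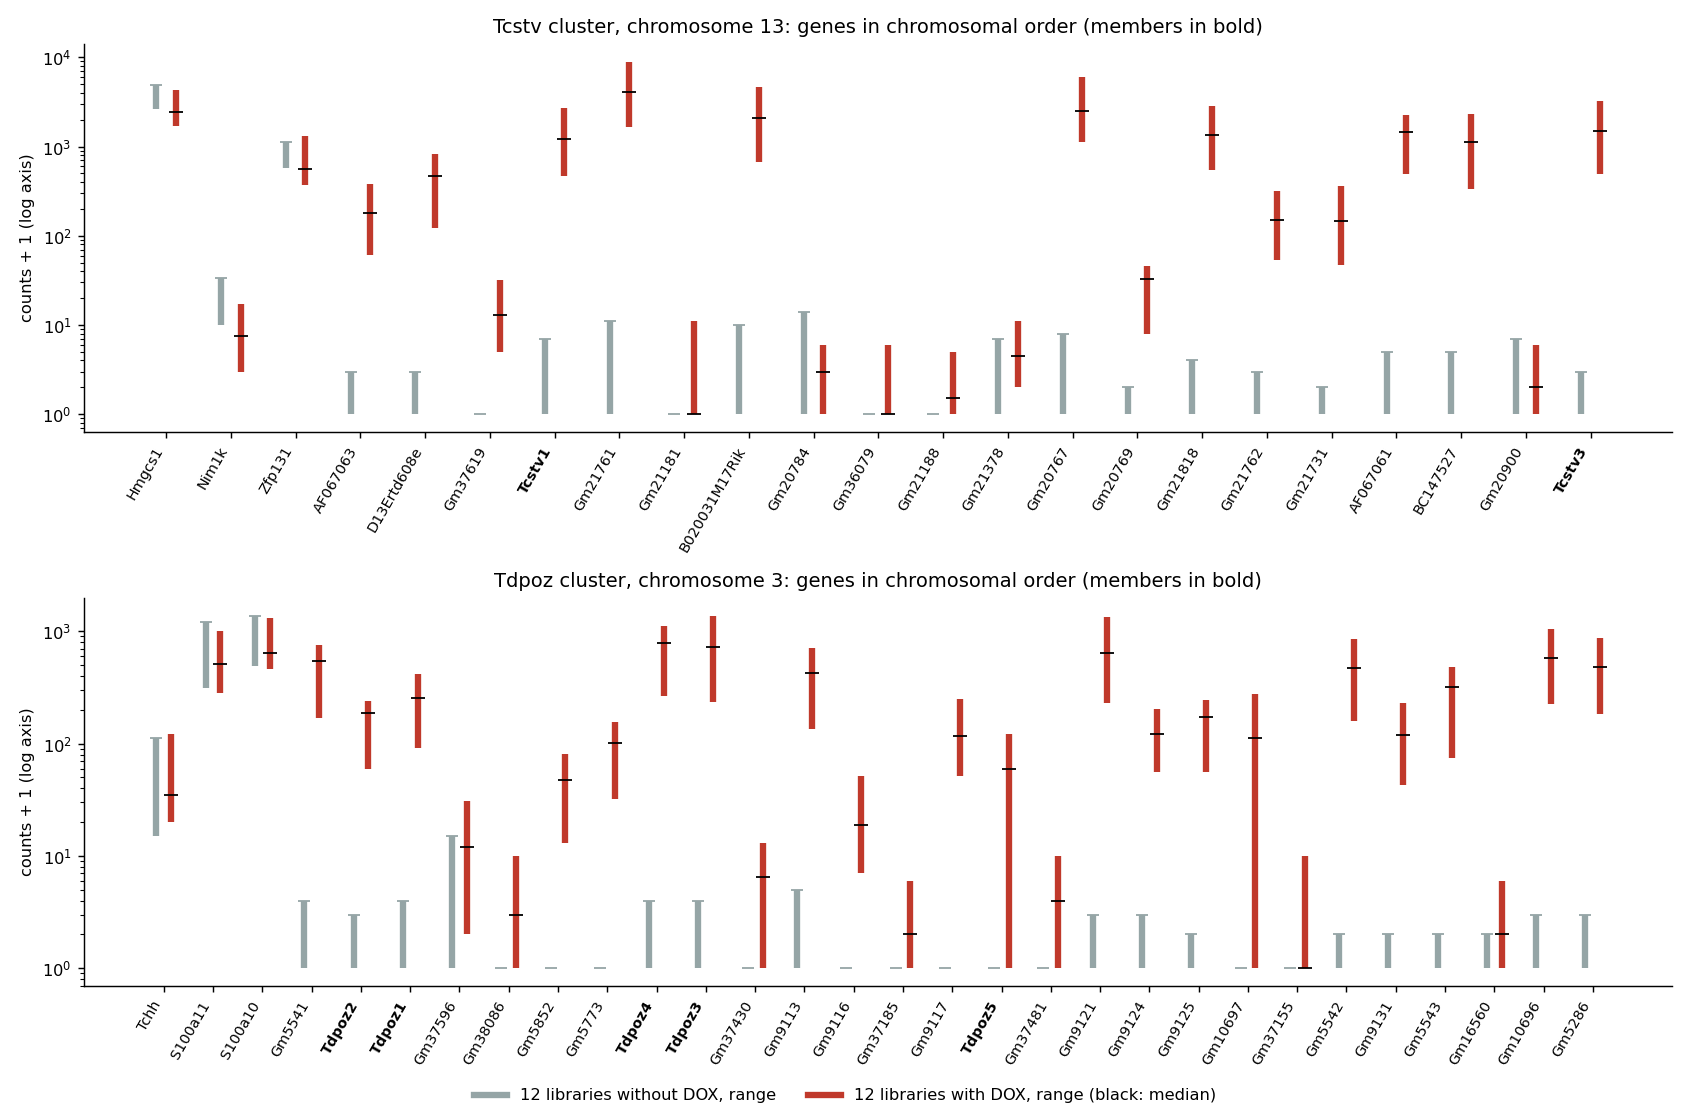
Counts + 1 (log axis) of genes within 250 kb of the members, in chromosomal order, for genes with over 3 counts in at least 1 library. Grey bars span the 12 libraries without DOX and red bars the 12 with DOX, with the median in black. Genes whose bars do not overlap lie both between the members (9 of 21 at Tcstv, 5 of 12 at Tdpoz) and outside them (3 of 12 and 9 of 30), and Hmgcs1 and S100a10 overlap.

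Across the 12 libraries with DOX, the genes whose profile was nearest to the Tcstv mean were from the same cluster. The measure was the root mean square difference of centred log2 CPM, over 11854 genes with a mean of at least 50 counts. It was 0.0885 for Gm21761, 0.0945 for Gm21818 and 0.111 for Gm20767, all between Tcstv1 and Tcstv3, then 0.127 for Gm48187 on chromosome 12 and 0.135 for Gm44739 on chromosome 7. The median gene was at 0.993. Each of Gm21761, Gm21818 and Gm20767 shares 75-base windows with Tcstv1 or Tcstv3, and Gm21818 shares 11.3% of those of Tcstv3. For the mean of Tdpoz1 to Tdpoz4 the nearest were Apol7b (0.128), Ddit4l (0.152), Gm4778 (0.155), Gm21542 (0.160) and Gm4858 (0.166), against a median of 0.848. Ddit4l, Gm4778 and Gm4858 lie on chromosome 3 as the Tdpoz genes do, all beyond 250 kb of them, and Gm4858 shares 16.1% of the windows of Tdpoz4. These libraries share their lines, their replicates and the DOX treatment, so the values describe likeness only.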

How the data were processed

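Total RNA, depleted of ribosomal RNA, was sequenced as strand-specific paired reads of 75 bases, per the labels' protocols. The submitters' processing notes name bcl2fastq 2.20.0, cutadapt 1.18, STAR 2.7.6a and mm10. The counting tool, the annotation and the handling of reads that match several copies are not given in the sources used here. The authors deposited whole-number counts per gene and per repeat subfamily for each library, with no normalization. Gene identifiers were matched to GENCODE M21, by full version for 54349 of 55487 and without version for 792. The 1146 repeat rows were left out. Counts were filtered by edgeR 4.0.16 (filterByExpr by group, R 4.3.3), scaled by TMM and tested with its quasi-likelihood test, 1 mean per group, the plain and pLV2 sets apart, with Benjamini-Hochberg adjustment over all genes and a threshold of 0.05. This gave 18 comparisons. CPM uses the TMM-scaled library sizes. SE is the log2 difference over the root of F, and 95% intervals span 1.96 SE to each side. These intervals are narrower than edgeR's test would give, since 1.96 takes no account of its limited degrees of freedom. Ratios of pooled counts carry exact (Clopper-Pearson) 95% intervals, and a pooled count of 0 was set to 3 counts for a lower bound. Depth was 11784696 to 19136869 gene counts per library, and the common CV was 17.8% for plain and 8.55% for pLV2 libraries. The test was checked on simulated counts with known changes. DESeq2 1.42.0, other filters and scalings, single WT lines and leaving out each library were alternatives. Same-numbered libraries of the plain set deviated together from their group means (r of 0.302 to 0.702 over 6 pairs of groups). The labels do not say that a number marks a batch, so the pairing comes from the data, and values with the replicate number as a block are given beside results it moved. No replicate pair agreed within sampling noise. The named genes are the members and a fixed list of others, with neighbours within 250 kb and the 5 nearest profiles per family. Members, lists and rules were chosen with earlier results of these data known.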

Additional observations from a re-analysis of the deposited data

How the results depend on the processing

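The calls of members with DOX in DUXBL-KO and in the 4 pLV2 lines kept within 6 and 7 under every alternative run, and leaving out libraries gave 0 to 6 in WT (0 without WT without DOX replicate 2) and 0 with only the compared groups in the fit. Counts of members called in DUXBL-KO against WT with DOX were 5 with no filter, 1 with DESeq2, 4 with all 24 libraries in 1 fit and 1 with the replicate number as a block. In that block, Tdpoz2 passed at 1.62 (adjusted p = 0.0295, edgeR), and in the pLV2 set Tdpoz1 in TRIM33-KO passed at 0.43. No other call of members between lines changed with the block. In the pLV2 set same-numbered libraries mostly did not deviate together (r of -0.211 to 0.313 over 28 pairs of groups). With DOX, TRIM24-KO had 5 members called when line 1 served as the only reference, and 32.2% of all genes were called there. When line 2 served as the only reference, 6 members and 46.8% of all genes were called. TRIM33-KO gave 1 against line 2 alone, and line 2 against line 1 gave 3 with all 24 libraries. Without DOX, TRIM24-KO gave 1 with no filter and 1 with DESeq2, and TRIM33-KO gave 1 with no filter, as did its test of a differing response. With only the compared groups no member could be tested without DOX. Without TMM factors the Tcstv sum with DOX in TRIM24-KO was 135 CPM in place of 180, and the Tdpoz sum was 155 in place of 207 there, 221 in place of 254 in TRIM33-KO and 189 in place of 181 in line 2.

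Directions of some differences with DOX turned, among them 0.53 for Tcstv1 in DUXBL-KO against WT and -0.28 for Tdpoz3 in TRIM24-KO. The others listed here were nearer 0 or rested on Tdpoz5. On leaving out single libraries, Tcstv1 in DUXBL-KO against WT ranged from -0.054 to 1.51 and Tcstv1 in TRIM24-KO from -0.257 to 0.119. Tcstv3 in TRIM24-KO ranged from -0.330 to 0.169. Tdpoz5 ranged from -7.93 to 8.83 in DUXBL-KO against WT and from -1.64 to 0.166 in TRIM24-KO, and its DOX effect from 0 to 8.96 in WT and from 0 to 9.82 in DUXBL-KO. Against line 1 alone TRIM24-KO gave 0.50 for Tcstv1, 0.84 for Tcstv3 and 0.041 for Tdpoz3, and against line 2 alone TRIM33-KO gave -0.23 for Tdpoz5. The sum of Tdpoz5 and Gm10697, an alternative chosen after seeing the data, gave 0.66 in TRIM24-KO. The cause of these turns was not tested.

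Counts over all genes moved as well. In DUXBL-KO against WT with DOX, 13 genes became 908 with no filter, 485 with the block, 164 with DESeq2, 596 with all 24 libraries and 1 with only the compared groups.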
